A study of Mus musculus with 12 samples.

Results

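The ABCC family of ATP-driven transporters was read in mouse liver RNA through 8 of its genes: Abcc1, Abcc2, Abcc3, Abcc4, Abcc5, Abcc6, Abcc9 and Abcc10. They were taken by gene symbol from a table of raw counts for 54532 genes, and all 8 were among the 14686 genes that passed the filter on low counts. The family was chosen by the counts of Abcc4 in the comparison of ANG8 with Ad_GFP, where it had stood out, so the values of that comparison are given as a description: no p-value of a member is printed for it, and where its calls are counted or named, they support nothing. The livers were of wild-type mice on chow and were taken 9 days after an adenovirus was given. The 4 groups held 3 libraries each: Ad_GFP received the control virus, ANG8 a virus to overexpress ANGPTL8, shCtrl a virus with a control short hairpin, and shANG8 a virus to knock down Angptl8. All 4 groups thus carried an adenovirus, and there was no group without one. The labels give neither the strain, sex and age of the mice nor the promoter of the viruses, and they do not say whether the virus carries the mouse or the human ANGPTL8. Nothing in them ties the 3 libraries of a group to different animals, and each p-value therefore rests on library-to-library spread that may in part be technical.

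ABCC proteins are membrane pumps that use ATP to move organic anions out of the cell, often as conjugates with glutathione, glucuronic acid or sulfate. In hepatocytes ABCC2 works at the canalicular membrane and sends conjugated bilirubin and other conjugates into bile. ABCC3 and ABCC4 sit at the basolateral membrane and send glucuronides, bile acids and cyclic nucleotides back to blood, a route known to be used more when bile flow is blocked. ABCC6 is needed for the release of ATP from hepatocytes, which gives rise to the mineralization inhibitor pyrophosphate, and ABCC9 is no exporter but the sulfonylurea receptor subunit of a potassium channel.

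Library totals ranged from 12537083 to 15144312 counts. Genes of the mitochondrial genome took between 19.3% and 43.8% of the counts, and the libraries of ANG8 spread most, from 22.5% to 43.8%. The hepatocyte markers named for this check (10 genes, among them Alb, Ttr and Apoa1) were present in every group, with summed levels of 24271 to 83709 CPM (each gene's count scaled to its library's total, in edgeR's CPM unit with TMM scaling). The targeted gene Angptl8 read 96.8, 80.4 and 90.0 CPM in Ad_GFP and 165, 314 and 172 CPM in ANG8. It read 340, 391 and 167 CPM in shCtrl and 144, 143 and 79.2 CPM in shANG8. Each ANG8 library lay above each Ad_GFP library and each shANG8 library below each shCtrl library, but ANG8 did not exceed shCtrl. The shANG8 libraries (79.2 to 144 CPM) overlapped those of Ad_GFP (80.4 to 96.8 CPM). For Angptl8 the log2 fold change was 1.28 (SE 0.33) in ANG8 against Ad_GFP and 1.75 (SE 0.33) in shCtrl against Ad_GFP. Angptl8 itself was at -1.29 on the log2 scale (SE 0.33) in shANG8 against shCtrl, short of the threshold (edgeR adjusted p = 0.235).

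All 8 genes are protein-coding and have the same positions in the deposited table and in GENCODE vM21, so coordinates are given on GRCm38. Abcc4 (ENSMUSG00000032849) spans chromosome 14 from 118482692 to 118706219 on the minus strand and its longest coding transcript has 31 exons. Of the stretches of 75 bases in the transcripts of Abcc4, 0 of 6378 occur in another gene, and the annotated genes that overlap it (Gm49033, Gm23302 and Mir6391) hold at most 2 counts in any library. For Abcc6 an overlapping gene on the other strand, Gm45674, holds 1 to 65 counts per library beside 1543 to 4944 for Abcc6. Dlk2 overlaps Abcc10 and 5330439B14Rik overlaps Abcc9 on the other strand, and these hold at most 5 and 2 counts. Short shared stretches occur in Abcc1 (0.0831% of its stretches) and Abcc9 (0.141%), and the other 6 genes share 0.

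Start site sequences are shown for Abcc4 and Abcc5, both higher in every ANG8 library than in any Ad_GFP library, and for Abcc2, whose level did not separate these groups. They are RefSeq windows on GRCm38.p6, 250 bases before to 50 after the annotated start, written 5′ to 3′ in the direction of the gene. The windows are chr14:118706170-118706469 on the minus strand for Abcc4, chr16:20426345-20426644 on the minus strand for Abcc5 and chr19:43782058-43782357 on the plus strand for Abcc2. Capitals mark matches on either strand to any of 6 motifs: TGACNNNGC (the antioxidant response element core), GCGTG (the xenobiotic response element core), GGGCGG (the GC box), CCAAT (the CCAAT box), TATAAA (the TATA box) and TGACGTCA (the cyclic AMP response element).
Abcc4: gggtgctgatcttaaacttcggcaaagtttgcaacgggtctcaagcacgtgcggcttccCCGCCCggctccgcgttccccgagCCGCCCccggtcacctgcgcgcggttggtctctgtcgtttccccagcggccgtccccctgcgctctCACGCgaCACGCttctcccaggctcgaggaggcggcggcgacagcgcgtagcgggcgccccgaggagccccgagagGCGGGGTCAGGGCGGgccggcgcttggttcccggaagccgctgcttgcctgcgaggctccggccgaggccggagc
Abcc5: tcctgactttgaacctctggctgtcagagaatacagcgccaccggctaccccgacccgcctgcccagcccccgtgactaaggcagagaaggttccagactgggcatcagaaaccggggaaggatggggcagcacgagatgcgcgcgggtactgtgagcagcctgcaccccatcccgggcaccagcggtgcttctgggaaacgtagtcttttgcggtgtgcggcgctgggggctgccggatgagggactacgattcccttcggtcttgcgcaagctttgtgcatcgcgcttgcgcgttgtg
Abcc2: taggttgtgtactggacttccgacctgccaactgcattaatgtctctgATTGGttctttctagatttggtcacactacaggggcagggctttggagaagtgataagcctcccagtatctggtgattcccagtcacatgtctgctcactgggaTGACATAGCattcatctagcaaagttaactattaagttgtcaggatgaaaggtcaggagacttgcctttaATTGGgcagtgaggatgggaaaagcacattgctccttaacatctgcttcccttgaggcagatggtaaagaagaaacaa
In the Abcc4 window GGGCGG occurs 3 times, GCGTG 2 times and TGACNNNGC once, as TGACCCCGC on the opposite strand from -25, where a GC box follows it directly without overlap. In the Abcc5 window none of the 6 motifs occurs, and in the Abcc2 window TGACNNNGC occurs 1 time, as TGACATAGC from -98, beside CCAAT 2 times. Among 32851 promoter windows of this length, 12.4% hold TGACNNNGC, 32.4% GCGTG, 35.7% GGGCGG, 37.4% CCAAT, 13.6% TATAAA and 1.79% TGACGTCA. A second RefSeq start of Abcc4, at chr14:118676882-118677181, also holds TGACNNNGC, as TGACTCTGC from -23, and none of the other 5 motifs. GC content is 72.7% in the Abcc4 window, 63.0% in that of Abcc5 and 45.0% in that of Abcc2. The motif TGACNNNGC also occurs in both windows of Abcc10, as TGACCTGGC and TGACATGGC, a gene whose libraries overlapped between ANG8 and Ad_GFP. It does not occur in the window of Abcc9 or in that of Abcc12, a family member outside the 8 that was higher in ANG8. The Abcc12 window, chr8:86566541-86566840 on the minus strand, lies inside the gene as counted, whose 5′ end is at 86580686. It is therefore not the window of that start. Abcc1, Abcc3 and Abcc6 were not matched to a window.

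Comparing ANG8 with Ad_GFP, in the study's setting of ANGPTL8 and liver lipid metabolism, the family did not move as a block. The basolateral pumps Abcc3 and Abcc4 and the nucleotide pump Abcc5 were higher under the ANG8 virus, Abcc6 was lower, and the canalicular pump Abcc2 had means of 298 CPM in Ad_GFP and 309 CPM in ANG8. In the fit over all genes (edgeR's quasi-likelihood test, adjusted p under 0.05), 3 of the 8 were on the called side as higher and 1 as lower, beside 13.5% of all 14686 tested genes. With a library left out the count was 2 to 3, and it was 2 without ANG8 replicate 3. This contrast led to the family, so the count is no test of the members and nothing is read from it. The median log2 fold change of the 8 was 0.42, with 5 positive and 3 negative, beside a median of -0.00022 over all tested genes.

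Abcc4, the basolateral pump for bile acids, prostaglandins and cyclic nucleotides, read 0.316, 1.26 and 0.941 CPM in the Ad_GFP libraries, from 5, 17 and 14 counts. In the ANG8 libraries it read 12.7, 16.5 and 20.6 CPM, from 175, 201 and 340 counts. Every ANG8 library stood above all 9 others, whose highest value was 2.25 CPM. The log2 fold change was 4.31 (SE 0.44, n = 3 and 3), a fold of 19.9, and only 4 of the tested genes had a larger one. No interval is given, since Abcc4 was chosen by this value. Leaving out each of the 6 libraries in turn gave 3.91 to 4.72. The value was 4.10 without ANG8 replicate 3, the library with the lowest mitochondrial share of its group, and 4.32 with that share as a covariate.

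Abcc5, which carries cyclic nucleotides and nucleotide analogues, read 11.5, 11.6 and 17.3 CPM in Ad_GFP and 24.0, 30.8 and 27.2 CPM in ANG8. The groups did not overlap, and the log2 fold change was 1.02 (SE 0.22). Abcc3, the basolateral pump for glucuronides and bile acids, read 70.5, 89.7 and 82.4 CPM in Ad_GFP and 129, 145 and 146 CPM in ANG8, again with no overlap. Its log2 fold change was 0.79 (SE 0.21). It was 0.70 without Ad_GFP replicate 1, 0.80 without Ad_GFP replicate 3, 0.77 without ANG8 replicate 2 and 0.74 without ANG8 replicate 3, and Abcc3 was outside the count above in these 4 fits.

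Abcc6, the hepatocyte protein needed for ATP release, read 224, 366 and 208 CPM in Ad_GFP and 152, 168 and 93.6 CPM in ANG8. Every ANG8 library lay below every Ad_GFP library, with a log2 fold change of -0.95 (SE 0.27). It was -0.65 without Ad_GFP replicate 2, -1.02 without ANG8 replicate 1 and -0.75 without ANG8 replicate 3, and Abcc6 was outside the count in these 3 fits. With the mitochondrial share as a covariate the value for Abcc6 was -1.32. That setting also moved Abcc10, from -0.52 to -0.90.

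Abcc1, a pump for glutathione conjugates and leukotriene C4 that is low in hepatocytes, read 2.85, 2.52 and 2.35 CPM in Ad_GFP and 3.69, 5.08 and 5.46 CPM in ANG8. These groups did not overlap, and the fitted difference was 0.88 on the log2 scale with an SE of 0.31. Abcc2 ranged from 266 to 331 CPM in Ad_GFP and from 293 to 326 CPM in ANG8, and its log2 fold change was 0.06 (SE 0.19). Abcc9, the channel subunit, and Abcc10, a pump with a wide substrate range that includes glucuronides, overlapped between the groups and had log2 fold changes of -0.75 (SE 0.41) and -0.52 (SE 0.40). In all, the libraries of 5 of the 8 genes did not overlap, 4 higher and 1 lower in ANG8, beside 34.1% of all tested genes.

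**Figure D1:**
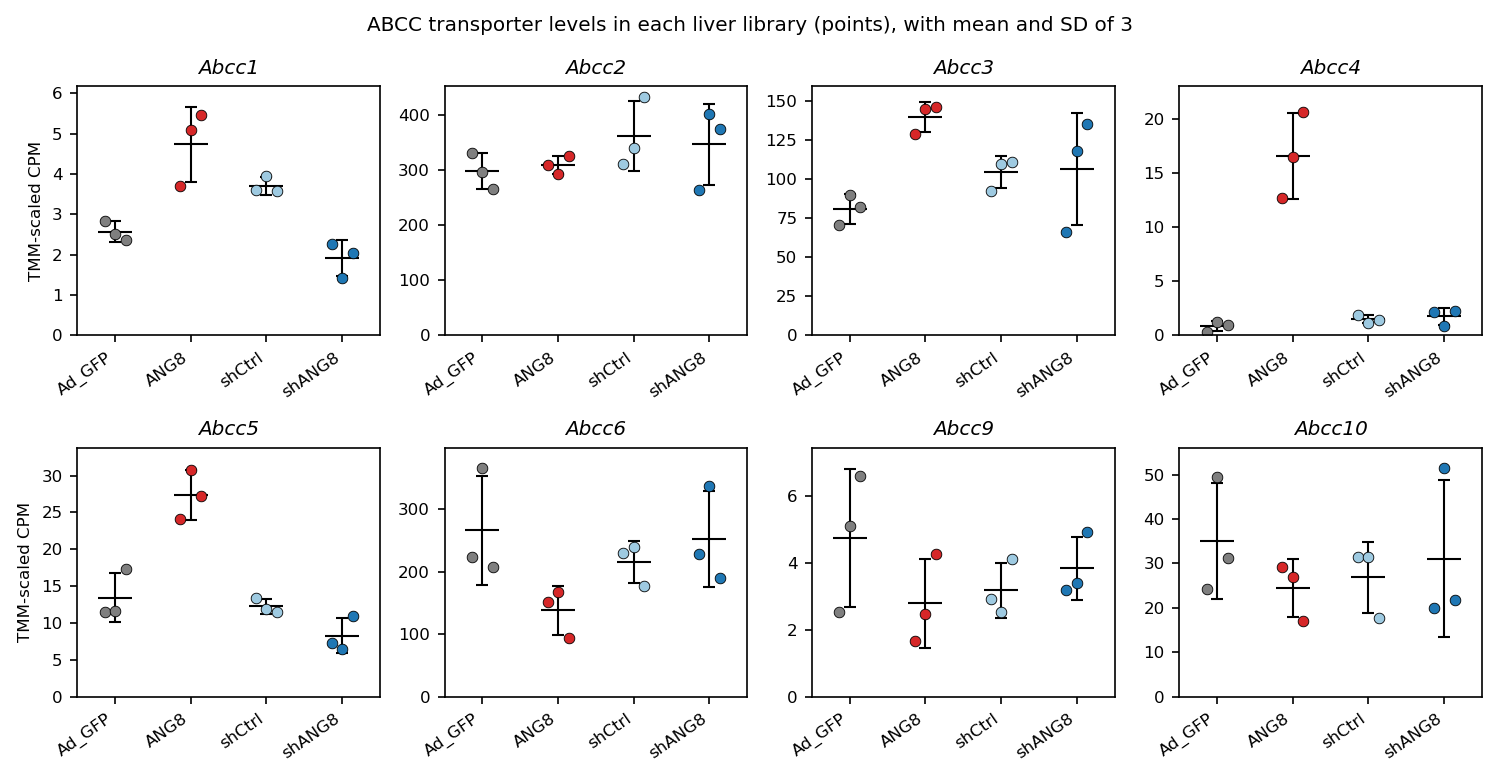
Levels of the 8 ABCC genes in TMM-scaled CPM (y axis, from 0) in the 12 libraries (points) of the 4 groups (x axis), with the mean as a bar and the SD of 3 libraries as whiskers. Abcc4 lies between 12.7 and 20.6 CPM in ANG8 and at or under 2.25 CPM in all other libraries, while Abcc2 overlaps between all groups.

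The knockdown comparison, shANG8 with shCtrl, shares no library with the one that led to the family and was tested. None of the 8 genes passed: edgeR called 0 of 8, as did DESeq2 (0) and limma voom (0), beside 0.191% of all tested genes (0.0613% higher and 0.129% lower). At an unadjusted p under 0.05 there were 2 of 8, Abcc1 and Abcc5, beside 7.93% of all tested genes. The same 2 genes had groups that did not overlap, both lower in shANG8, beside 6.78% of tested genes that were lower and 6.16% that were higher without overlap. Genes without overlap in both arms and with opposite directions, as these 2, made up 2.98% of tested genes. The median log2 fold change of the 8 was 0.12, beside 0.01 over all tested genes.

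Abcc1 read 3.60, 3.96 and 3.57 CPM in shCtrl and 2.27, 1.42 and 2.04 CPM in shANG8, from 47 to 58 and from 18 to 30 counts. Its log2 fold change was -0.95 (SE 0.32, unadjusted p = 0.00855, edgeR adjusted p = 0.439). Abcc5 read 13.4, 11.9 and 11.6 CPM in shCtrl and 7.28, 6.53 and 10.97 CPM in shANG8. Its log2 fold change was -0.57 (SE 0.23, unadjusted p = 0.0220, edgeR adjusted p = 0.530). Both genes were lower in 3 of 3 shANG8 libraries than in any shCtrl library, yet neither passed the adjustment over all genes.

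No fall of Abcc4 was seen under the knockdown virus. Abcc4 read 1.83, 1.09 and 1.44 CPM in shCtrl and 2.12, 0.865 and 2.25 CPM in shANG8. The groups overlapped, and the log2 fold change of 0.27 (SE 0.43, edgeR adjusted p = 0.932) had a 95% interval of -0.64 to 1.17, or folds of 0.642 to 2.25. These values rest on 11 to 32 counts per library. Abcc2, Abcc3 and Abcc6 had log2 fold changes of -0.06 (SE 0.19), 0.03 (SE 0.21) and 0.23 (SE 0.27), with 95% intervals of -0.46 to 0.34, -0.42 to 0.47 and -0.34 to 0.79. Abcc9 and Abcc10 were at 0.27 (SE 0.41) and 0.21 (SE 0.40). The adjusted p of these 5 genes ranged from 0.897 to 0.993. Whether the effects of the 2 viruses differ for a member was not tested, since that contrast holds the values that led to the family.

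**Figure D2:**
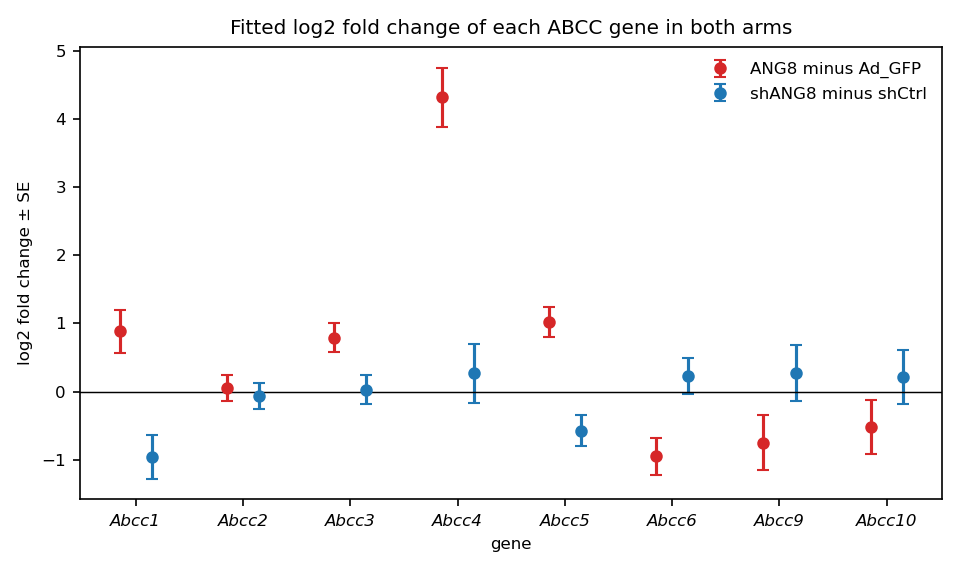
Fitted log2 fold change (y axis) of each ABCC gene (x axis) in ANG8 minus Ad_GFP (red) and shANG8 minus shCtrl (blue), with the SE as whiskers. Abcc4 stands at 4.31 in the red series and at 0.27 in the blue one, and Abcc1 and Abcc5 are the genes that are positive in red and negative in blue beyond their SE.

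Between the control viruses the values of the members are given as a description. These values share the Ad_GFP libraries with the first comparison and carry no p for single genes. At an unadjusted p under 0.05 there were 0 of 8, beside 8.76% of tested genes, and edgeR called 0 of 8, beside 0%. The 0 of 8 called follows from edgeR calling 0 of all 14686 tested genes in this pair. Because of the shared libraries, neither count is a test of the members, and nothing is read from them. Between shCtrl and Ad_GFP the log2 fold change was 0.81 (SE 0.46) for Abcc4, 0.53 (SE 0.31) for Abcc1, 0.37 (SE 0.21) for Abcc3 and 0.28 (SE 0.19) for Abcc2. It was -0.13 (SE 0.22) for Abcc5, -0.31 (SE 0.27) for Abcc6, -0.57 (SE 0.40) for Abcc9 and -0.38 (SE 0.40) for Abcc10. Abcc1 and Abcc3 were higher in each shCtrl library than in any Ad_GFP library, beside 7.66% of tested genes that were higher, 8.45% that were lower and 16.1% in all without overlap in this pair, and the other 6 overlapped. For Abcc1, the ANG8 level (3.69 to 5.46 CPM) overlapped that of shCtrl (3.57 to 3.96 CPM). For Abcc3 the ANG8 level (129 to 146 CPM) lay above that of shCtrl (92.6 to 111 CPM) but overlapped shANG8 (66.3 to 135 CPM).

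Levels of different genes were compared as CPM per kilobase of exon length, as the table gives that length. Order and overlap between genes depend on it, and how well it matches the transcripts present in liver was not tested. Abcc6, Abcc2 and Abcc3 made up most of the family. In Ad_GFP their means were 46.5 ± 15.2, 34.9 ± 3.81 and 14.2 ± 1.70 CPM per kb (SD, n = 3), or 45.2%, 34.0% and 13.8% of the summed means of the 8. Abcc10 followed at 5.10 ± 1.91, then Abcc5 at 1.26 ± 0.311, Abcc9 at 0.566 ± 0.245, Abcc1 at 0.170 ± 0.0166 and Abcc4 at 0.131 ± 0.0750. The neighbours whose libraries overlapped in this order were Abcc6 with Abcc2 and Abcc1 with Abcc4. Abcc4 was thus the lowest by its mean, without being set apart from Abcc1 on this scale. The length is 15092 bases for Abcc1, whose longest coding sequence has 4584, and 6389 bases for Abcc4. Without division by length, the Ad_GFP libraries of Abcc1 (2.35 to 2.85 CPM) all lay above those of Abcc4 (0.316 to 1.26 CPM).

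In ANG8 the order was Abcc2 (36.3 ± 1.91 CPM per kb), Abcc3 (24.5 ± 1.71), Abcc6 (24.1 ± 6.87), Abcc10 (3.56 ± 0.952), Abcc4 (2.60 ± 0.622), Abcc5 (2.56 ± 0.317), Abcc9 (0.333 ± 0.158) and Abcc1 (0.314 ± 0.0616). Abcc3 overlapped Abcc6, Abcc4 overlapped both Abcc10 and Abcc5, and Abcc9 overlapped Abcc1. Abcc4 held 2.10% to 3.62% of the family's summed level in the ANG8 libraries and 0.0519% to 0.382% in the other 9. Summed over the 8, the level was 103 ± 18.4 CPM per kb for Ad_GFP and 94.3 ± 5.0 for ANG8. It was 104 ± 4.12 for shCtrl and 110 ± 24.5 for shANG8, and these ranges overlapped. Within it, the share of Abcc6 was 40.8% to 51.7% in Ad_GFP and 18.3% to 29.6% in ANG8, and that of Abcc3 was 12.7% to 16.2% and 23.9% to 28.7%.

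The ratio of the basolateral Abcc3 to the canalicular Abcc2, both per kilobase, was 0.319 to 0.464 in Ad_GFP and 0.622 to 0.741 in ANG8. It was 0.384 to 0.483 in shCtrl and 0.377 to 0.539 in shANG8, so the 3 ANG8 libraries stood above all 9 others. The ratio of Abcc6 to Abcc2 was 1.01 to 1.84 in Ad_GFP and 0.428 to 0.856 in ANG8, against 0.611 to 1.10 in shCtrl and 0.755 to 1.29 in shANG8. In shCtrl the order was led by Abcc2 (42.4 ± 7.42) and Abcc6 (37.6 ± 5.81) and in shANG8 by Abcc6 (44.1 ± 13.4) and Abcc2 (40.7 ± 8.62), with overlap between this pair in both groups. Abcc3, Abcc10, Abcc5 and Abcc9 came next in both, and the lowest pair per kilobase, Abcc1 and Abcc4, overlapped in both on that scale.

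**Figure D3:**
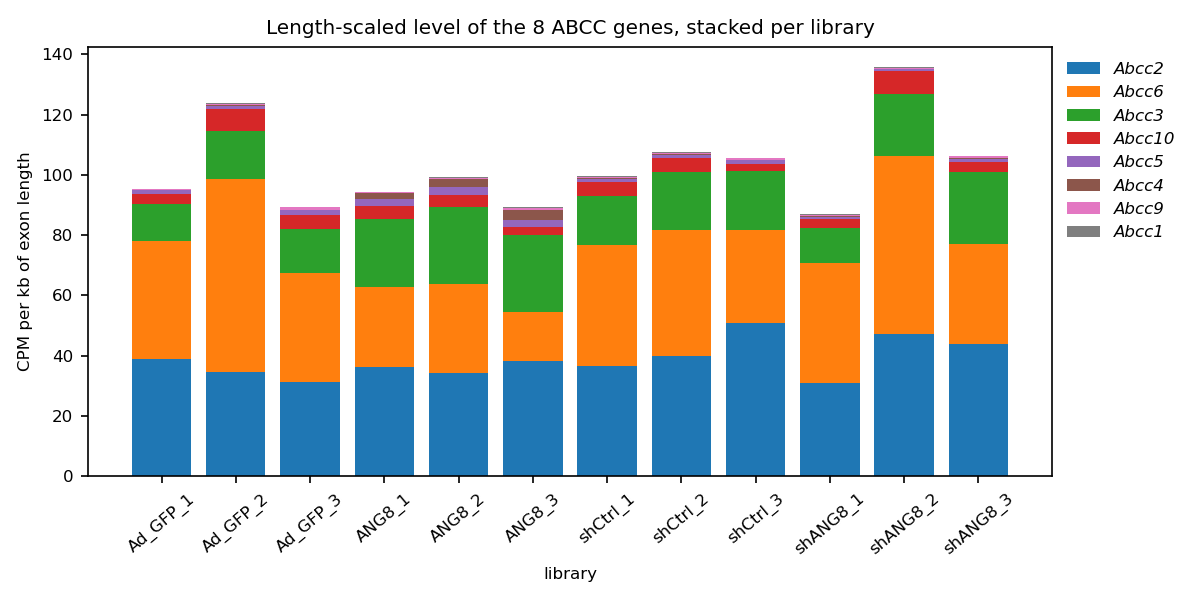
CPM per kb of exon length (y axis) of the 8 ABCC genes, stacked for each of the 12 libraries (x axis). The 3 ANG8 bars reach 89.3 to 99.3 in all, inside the 86.9 to 136 of the other libraries, with a thinner Abcc6 part and thicker Abcc3 and Abcc4 parts than in Ad_GFP.

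Abcc6 and Abcc10 also varied inside groups. In Ad_GFP both were highest in replicate 2 (366 and 49.5 CPM), and in shANG8 both were highest in replicate 2 as well (338 and 51.5 CPM). In ANG8 both were lowest in replicate 3 (93.6 and 17.0 CPM) and in shCtrl both were lowest in replicate 3 (177 and 17.6 CPM). Their longest coding transcripts have the highest GC content of the 8, 59.0% for Abcc6 and 59.98% for Abcc10, against 45.2% to 54.2% for the others. The part of transcript composition in this spread was not tested.

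Of the ABCC genes outside these 8, Abcc12 had a mean of 0.172 CPM per kb in Ad_GFP against 0.821 in ANG8, and of 0.231 in shCtrl against 0.0721 in shANG8, while Abcc8 and Cftr were at or near 0. Abcc12, a family member of little known function on chromosome 8 (86482260 to 86580686), read 1.08, 0.740 and 1.61 CPM in Ad_GFP and 6.52, 6.88 and 2.97 CPM in ANG8. It passed the test with a log2 fold change of 2.24 (SE 0.55). In shCtrl it read 2.78, 1.37 and 0.456 CPM and in shANG8 0.379, 0.708 and 0.352 CPM, a log2 difference of -1.68 (SE 0.62) that was not called (edgeR adjusted p = 0.491). Abcc8, the sulfonylurea receptor of pancreatic beta cells, had 2 counts in 1 library and 0 in 11, and Cftr, the epithelial chloride channel, had 7 counts over 2 libraries and 0 in 10. A count of 0 allows up to 0.182 to 0.246 CPM (3 counts per library, for counting error only).

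Around the family, carriers that bring bile acids and organic anions into the hepatocyte fell in ANG8 against Ad_GFP. The lists used here were drawn up with results of this contrast known, so their counts are no independent evidence of a direction. Of 13 uptake and other efflux carriers 7 fell and 0 rose, with a list median of -0.78. Slc10a1, the sodium-dependent bile acid uptake carrier, dropped to 34.0 CPM in ANG8 against 150 CPM in Ad_GFP (-2.14 on the log2 scale, SE 0.22). Slco1a1, an organic anion uptake carrier, dropped to 28.2 CPM against 154 CPM (-2.45, SE 0.44). Slco2b1 (-0.78, SE 0.17) and Slc22a7 (-1.43, SE 0.37), also organic anion carriers, fell too. Among 26 other ABC transporters 1 rose and 4 fell, with a median of -0.14. The riser was Abcg1, a cholesterol exporter (1.98, SE 0.27), and Abcb11, the bile salt export pump of the canaliculus, fell from 438 to 265 CPM (-0.72, SE 0.20). Abcd3, of the peroxisomal membrane, and Abca8a also fell (-0.95, SE 0.18, and -1.11, SE 0.27). The share of all tested genes that rose was 7.08% and that of genes that fell was 6.39%.

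Enzymes that make the conjugates that ABCC pumps carry moved unevenly. Of 28 tested genes of glutathione synthesis, conjugation and breakdown, 6 rose, 3 fell and 19 did not pass (median 0.68). Those that rose included Gclc, the catalytic subunit of the rate-limiting enzyme of glutathione synthesis (from 302 to 1323 CPM, 2.13, SE 0.30), glutathione synthetase Gss (1.14, SE 0.19), glutathione reductase Gsr (1.48, SE 0.18) and the transferase Gstm4 (1.6, SE 0.28). Transferase and sulfotransferase genes have close relatives in the genome, how reads were split between them is not given, and their values are uncertain for that reason. Of 23 tested genes of glucuronidation and sulfation, 1 rose, 8 fell and 14 did not pass (median -0.38). The sulfotransferase Sult2a8 fell from 514 to 70.3 CPM (-2.87, SE 0.33), as did Sult5a1 (-1.77, SE 0.33), the glucuronosyltransferase Ugt2b1 (-1.38, SE 0.23) and Papss2, which makes the sulfate donor (-1.17, SE 0.21). Ugdh, which makes the glucuronic acid donor, was the riser (1.14, SE 0.29), a gene chosen after its value was seen.

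None of 16 regulators known to act on ABCC genes passed in ANG8 against Ad_GFP by edgeR (0 of 16, with a median of -0.18), while limma voom called 0 and DESeq2 called 2. At an unadjusted p under 0.05 there were 5 of 16, beside 27.7% of all tested genes. The lowest p belonged to the nuclear receptor genes Ppara (-0.63, SE 0.21) and Nr1h4 (-0.59, SE 0.20), then Keap1, the inhibitor of NRF2 (0.42, SE 0.18). Nfe2l2, which encodes NRF2 and was chosen after its value was seen, was at -0.21 (SE 0.23). Of 16 known NRF2 targets 5 rose and 0 fell (median 0.92), led by sulfiredoxin Srxn1 (from 104 to 904 CPM, 3.11, SE 0.39), thioredoxin reductase Txnrd1 (1.30, SE 0.19), Pgd (1.37, SE 0.22) and haem oxygenase Hmox1 (1.55, SE 0.28). Of 17 tested targets of the receptors CAR, PXR, AHR and PPAR-alpha 1 rose, the AHR target Cyp1a1 (from 3.04 to 13.9 CPM, 2.19, SE 0.37), and Pdk4 (1.31, SE 0.56), Cyp1a2 (0.55, SE 0.24) and Ehhadh (0.66, SE 0.34) did not pass.

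Partners and substrates of single members were read too. Of 10 membrane anchors, moesin Msn (1.26, SE 0.22) and ezrin Ezr (0.96, SE 0.25) rose and Slc9a3r1, a PDZ scaffold of transporters, fell (-0.82, SE 0.19). Radixin Rdx, the anchor of ABCC2 in the canaliculus, was at -0.51 (SE 0.20) and did not pass. Of 10 tested genes that handle ATP, adenosine and pyrophosphate, the pathway that ABCC6 feeds, 3 rose and 2 fell, with a rise of the ectonucleotidases Entpd1 (1.55, SE 0.25) and Nt5e (1.91, SE 0.51), and a fall of the pyrophosphate exporter Ank (-0.83, SE 0.20) and the nucleoside carrier Slc29a1 (-0.66, SE 0.19). Of 25 tested genes of leukotriene, prostaglandin and cyclic nucleotide handling, 4 rose and 1 fell. Pde5a, which breaks down cyclic GMP, rose (1.89, SE 0.34), as did the adenylate cyclase Adcy7 (0.67, SE 0.18) and Alox5ap of leukotriene synthesis (1.45, SE 0.43), while Adcy9 fell (-1.40, SE 0.35). Kcnj8, the pore partner of ABCC9, was at -0.71 (SE 0.82). In the knockdown comparison edgeR called 0 of the 185 tested genes of these lists and limma voom 0, while DESeq2 called 3. At an unadjusted p under 0.05 there were 23 of the 185, beside 7.93% of all tested genes. The list medians ranged from -0.17 to 0.19, leaving out the ABCC genes outside the 8 and the channel partners, of which 1 gene each was tested.

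**Figure D4:**
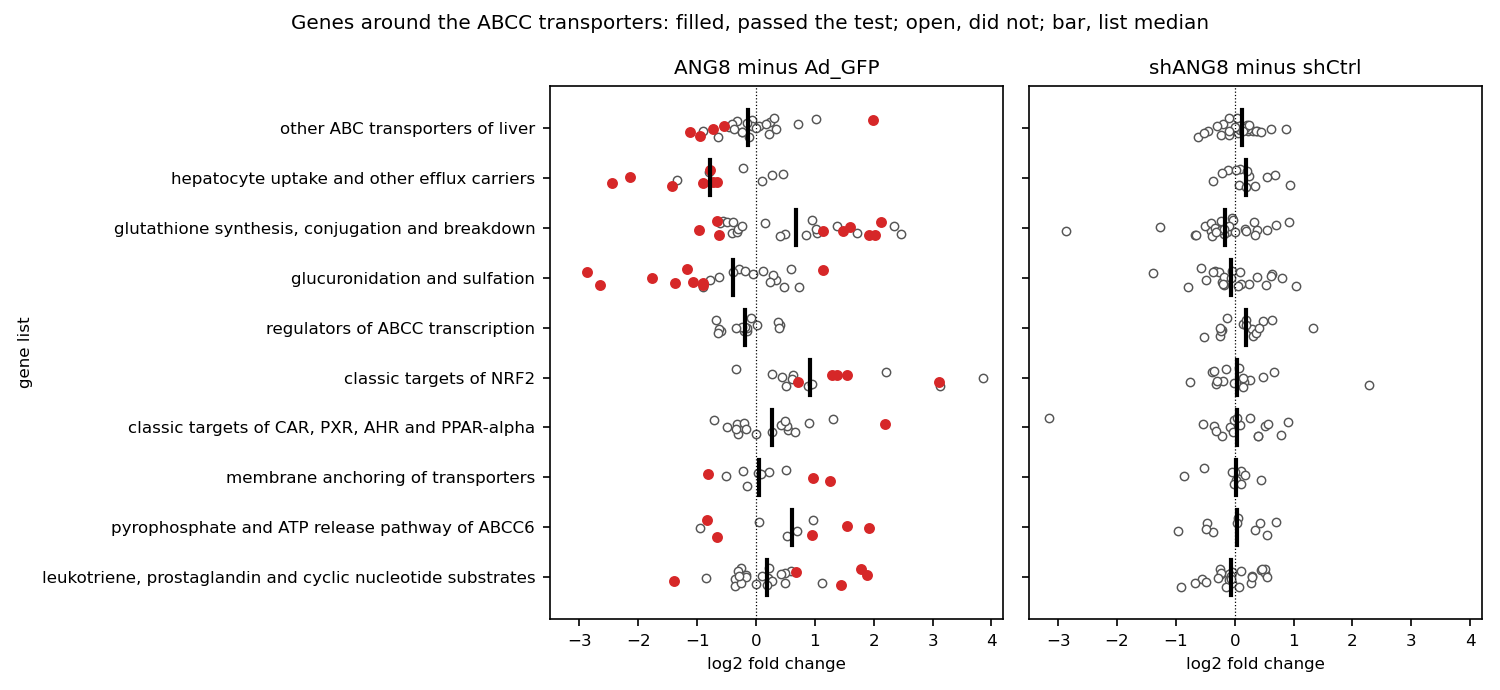
Log2 fold change (x axis) of the tested genes of 10 lists around the ABCC transporters (y axis) in ANG8 minus Ad_GFP (left) and shANG8 minus shCtrl (right), where filled points passed edgeR's test, open points did not and the bar is the list median. Filled points occur in 9 of the 10 lists on the left and in none on the right, and the uptake carriers and NRF2 targets have the medians farthest from 0, -0.78 and 0.92.

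Markers of some other cells differed between ANG8 and Ad_GFP too, while those of others did not. In bulk liver, fewer cells of a type and less RNA per cell cannot be told apart. The summed level of 10 macrophage and Kupffer cell markers was 294 to 392 CPM in Ad_GFP and 663 to 773 CPM in ANG8, with 8 of 10 called higher. For 11 T and NK cell markers it was 54.6 to 77.9 CPM in Ad_GFP and 144 to 164 CPM in ANG8 (7 higher and 1 lower), and for 8 cycling cell markers 61.4 to 83.5 CPM and 159 to 239 CPM (4 higher). The 10 hepatocyte markers summed to 43481 to 65316 CPM in Ad_GFP and 24271 to 51721 CPM in ANG8, with 8 called lower. Of all tested genes 7.08% were called higher and 6.39% lower. In the knockdown arm the T and NK cell sum was 73.8 to 96.9 CPM in shCtrl and 43.9 to 63.0 CPM in shANG8, the same order as Abcc1 and Abcc5 showed in both arms. edgeR, DESeq2 and limma voom called 0 of the 11, with 5 at an unadjusted p under 0.05, beside 7.93% of all tested genes. The sum of the cholangiocyte markers was also lower in shANG8 without overlap (40.4 to 63.4 against 68.7 to 118 CPM). So were those of neutrophil (2.12 to 2.99 against 3.55 to 8.66 CPM) and platelet markers (4.50 to 7.71 against 8.35 to 11.0 CPM). Of single tested genes 6.78% were lower without overlap. No tool called a cholangiocyte, neutrophil or platelet marker. At an unadjusted p under 0.05 there were 0 of 6 tested cholangiocyte, 2 of 3 neutrophil and 1 of 4 platelet markers. The sums of the remaining lists overlapped in this arm, where DESeq2 alone called 1 of the 10 macrophage and Kupffer cell markers. Stellate cell, pericyte and smooth muscle markers, the cells known for Abcc9, overlapped between ANG8 (85.8 to 155 CPM) and Ad_GFP (47.8 to 141 CPM). Cholangiocyte markers summed to 34.0 to 119 CPM in Ad_GFP and 93.4 to 159 CPM in ANG8, which overlapped. Sums of the B cell, neutrophil, platelet and endothelial markers overlapped between ANG8 and Ad_GFP as well. In that comparison edgeR called 0 genes of these lists and 0 of the cholangiocyte and stellate cell lists. DESeq2 and limma voom each called 1 of the 8 endothelial markers and 0 of the others. These marker lists, too, were drawn up with results known. The part of these cells in the values of the ABCC genes was not tested.

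The genes whose log2 CPM over the 12 libraries was most like that of Abcc4, by Pearson's r as a description over 10923 candidate genes, were Sms (0.970), Pygb (0.969), Arhgap25 (0.945), Mapk9 (0.940) and Hmgb2 (0.937). The 12 libraries share 4 groups, so r mostly reflects that ANG8 stands apart. All 5 rose in ANG8, by log2 fold changes of 0.69, 2.02, 1.5, 0.50 and 1.5, which are smaller than that of Abcc4. For Abcc5 the nearest were Atad2 (0.979) and Rasa4 (0.977), for Abcc1 Nabp1 (0.917) and Abhd2 (0.906), and for Abcc3 Gstp2 (0.882) and Slc35e3 (0.881). For Abcc6 they were Sirt7 (0.973) and Nlrp6 (0.966), for Abcc10 Agrn (0.973) and Sbf1 (0.965), for Abcc9 Ltbp4 (0.878) and Dnajc19-ps (0.860), and for Abcc2 Klhl25 (0.870) and Ahr (0.847).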

How the data were processed

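Liver RNA of 12 mouse samples was extracted with Trizol and made into libraries with the NEBNext Ultra kit, per the labels' protocols. The authors deposited raw counts of reads per gene, not normalized, with an exon length per gene in bases. Per the submitters' processing notes the tools were CASAVA (1.8.2) and, for counting, featureCounts (1.5.0-p3). The build listed there is mm9, whereas the positions of the 8 ABCC genes in the table are those of GENCODE vM21 on GRCm38. No aligner or strand setting is given in the sources used here, so reads of genes that overlap on opposite strands cannot be told apart.

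Counts were tested with edgeR 4.0.16 in R 4.3.3: filterByExpr, TMM scaling and a robust quasi-likelihood fit over all 12 libraries, with Benjamini-Hochberg adjustment over the 14686 genes kept. The fit was tested on simulated data. SE is the absolute log2 fold change divided by the square root of F, and 95% intervals use it with the fit's degrees of freedom. Log2 CPM for likeness used a prior count of 2. DESeq2 1.42.0, limma 3.58.1 (voom), another scaling, no filter, fewer libraries, a replicate block and mitochondrial settings were alternatives. Replicates of a group differed by more than counting noise (chi-square per gene of 13.9 to 145).

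The ABCC genes and the gene lists were chosen with earlier results of these data known. Named genes were the 8, the other ABCC genes, in each list up to 4 genes with the smallest p in ANG8 minus Ad_GFP and any called in knockdown, and the genes nearest in pattern among those whose log2 CPM averaged 1 or more (5 for Abcc4, 2 for others), without predicted genes. Gene examples beyond that are marked as chosen after their values were seen. Some genes that the rule would name are not reported here.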

Additional observations from a re-analysis of the deposited data

Results flagged for a closer look

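The libraries of Abcc1 and Abcc5 were ordered in opposite senses in the arms of the study: each ANG8 library lay above each Ad_GFP library and each shANG8 library below each shCtrl library. For Abcc1 the log2 fold changes were 0.88 (SE 0.31) under the overexpression virus and -0.95 (SE 0.32) under the knockdown virus. For Abcc5 they were 1.02 (SE 0.22) and -0.57 (SE 0.23). Neither gene passed in the knockdown (edgeR adjusted p = 0.439 for Abcc1 and 0.530 for Abcc5), and the overexpression values are those of the contrast that led to the family. The difference between the arms was not tested. Of all 14686 tested genes, 438 (2.98%) met the same description.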

How the results depend on the processing

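Of 112 log2 fold changes of the 8 genes in 14 alternatives for ANG8 minus Ad_GFP, 103 kept their sign and their side of the threshold, 7 (4 of Abcc3 and 3 of Abcc6, each without 1 library) kept the sign but no longer passed, and 2 changed sign. In shANG8 minus shCtrl 101 of 112 kept both and 11 changed sign, all of genes that did not pass in the comparison as reported. The number of the 8 genes called in ANG8 minus Ad_GFP was 4, and 2 to 3 when a library was left out, with 2 without ANG8 replicate 3. In shANG8 minus shCtrl it was 0 in every alternative run. Leaving out libraries gave -0.022 to 0.14 for Abcc2 in ANG8 minus Ad_GFP, and in shANG8 minus shCtrl -0.18 to 0.084 for Abcc2, -0.18 to 0.26 for Abcc3, -0.044 to 0.39 for Abcc6 and -0.36 to 0.43 for Abcc10. Abcc3 in the knockdown was -0.033 with limma voom, -0.0078 without a filter on low counts and -0.010 with the replicate block. The cause of these changes was not tested.

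With the replicate number as a block, 4 of the 8 genes were called in ANG8 minus Ad_GFP and 0 in shANG8 minus shCtrl, as without it, and over all genes 55 in place of 28 were called in the knockdown. Same-numbered libraries share only a number: their deviations from the group means correlated at -0.07, 0.12 and 0.15 in the overexpression arm and at 0.03, 0.08 and 0.19 in the knockdown arm. Over all genes the 28 calls of the knockdown also became 89 with DESeq2, 132 without a filter and 47 when the mitochondrial share entered as a covariate. Between shCtrl and Ad_GFP the 0 calls became 42 with DESeq2, 96 without a filter, 5 with the replicate block, 10 without Ad_GFP replicate 1 and 1 without shCtrl replicate 3. The 1978 calls of ANG8 minus Ad_GFP became 1080 without Ad_GFP replicate 1, 1133 without Ad_GFP replicate 2, 995 without ANG8 replicate 1 and 1307 without ANG8 replicate 2. They became 2422 with DESeq2, 2383 without a filter and 2600 with the replicate block. Depth limits Abcc4, Abcc1 and Abcc9 most, with 5 to 32, 18 to 58 and 37 to 98 counts per library outside ANG8. For Abcc9 the lowest counts were in ANG8, at 23, 30 and 70.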
